A study of Homo sapiens with 14 samples.

Results

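Genes of the blood coagulation system were followed through pancreatic differentiation of HUES8, an established human embryonic stem cell line. The 10 genes, of 59050 gene symbols in the count table, were taken by name as a set of plasma coagulation factors and their close relatives: F2, F5, F7, F9, F10, F13B, HABP2, PROC, PROS1 and PROZ. Wild-type cells were sampled as definitive endoderm (DE), as early pancreatic progenitors (PP1) and as late pancreatic progenitors (PP2). Each stage was measured by RNA sequencing of total RNA depleted of ribosomal RNA (RNA) and by sequencing of ribosome-bound RNA (Ribo), with 2 DE, 2 PP1 and 3 PP2 libraries per assay, 14 in all. No agent, allele or treatment other than the differentiation stage separated the groups. The labels do not say that libraries of a group came from separate cultures, so the p-values measure the spread between these libraries, which may be technical.

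Blood coagulation is a cascade of plasma proteases, made mainly by hepatocytes, that ends with thrombin cutting fibrinogen to fibrin. F2, F7, F9, F10, PROC, PROS1 and PROZ encode proteins with a Gla domain, whose glutamates are carboxylated in a vitamin K dependent step so that the protein can bind calcium and membranes. F5 encodes the cofactor of activated factor X, F13B the carrier subunit of the fibrin-crosslinking enzyme, and HABP2 a secreted protease that can activate factor VII. In the embryo, liver and pancreas arise from neighbouring foregut endoderm, and the liver-enriched transcription factors HNF4A, FOXA and C/EBP are known regulators of coagulation factor genes.

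The upstream sequences of the 4 genes that rose from DE to PP1 and fell from PP1 to PP2 in RNA, without an overlap of the PP1 libraries with the other stages, are shown first, because the results turn on them. They are the 250 bases before each annotated start in RefSeq on GRCh38.p14, written from 5′ to 3′ on the strand of the gene, with matches to the motifs described after them in capitals. F2, which encodes prothrombin, starts after chr11:46718963-46719212, and HABP2 has annotated starts after chr10:113550581-113550830 and after chr10:113552803-113553052. F7, the protease that starts the cascade with tissue factor, starts after chr13:113105541-113105790, and F10, the protease that makes thrombin, after chr13:113122549-113122798. All 4 genes lie on the plus strand.
F2: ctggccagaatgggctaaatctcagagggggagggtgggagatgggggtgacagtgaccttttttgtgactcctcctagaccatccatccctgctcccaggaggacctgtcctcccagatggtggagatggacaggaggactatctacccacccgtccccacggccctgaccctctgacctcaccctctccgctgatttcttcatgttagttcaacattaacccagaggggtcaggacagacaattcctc
HABP2 upstream start: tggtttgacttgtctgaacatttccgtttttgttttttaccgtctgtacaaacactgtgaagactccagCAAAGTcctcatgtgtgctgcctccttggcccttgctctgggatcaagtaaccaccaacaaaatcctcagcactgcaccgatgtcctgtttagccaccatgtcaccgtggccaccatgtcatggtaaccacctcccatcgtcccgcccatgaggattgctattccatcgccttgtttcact
HABP2 downstream start: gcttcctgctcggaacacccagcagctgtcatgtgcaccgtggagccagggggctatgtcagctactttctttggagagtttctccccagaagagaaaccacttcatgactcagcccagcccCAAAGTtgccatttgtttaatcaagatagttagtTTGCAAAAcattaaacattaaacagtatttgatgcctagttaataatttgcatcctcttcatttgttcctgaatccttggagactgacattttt
F7: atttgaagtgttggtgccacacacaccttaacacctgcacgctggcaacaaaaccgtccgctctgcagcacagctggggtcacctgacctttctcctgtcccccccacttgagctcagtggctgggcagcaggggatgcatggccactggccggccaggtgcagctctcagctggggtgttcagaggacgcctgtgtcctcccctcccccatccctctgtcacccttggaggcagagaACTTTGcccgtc
F10: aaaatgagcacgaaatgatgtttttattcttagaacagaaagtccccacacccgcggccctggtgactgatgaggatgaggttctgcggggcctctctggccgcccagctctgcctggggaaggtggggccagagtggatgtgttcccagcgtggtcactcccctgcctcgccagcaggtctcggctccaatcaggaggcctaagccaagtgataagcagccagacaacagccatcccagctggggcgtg

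The motifs were short letter strings searched on both strands in the windows of all RefSeq genes, 35116 in all. The HNF4 string CAAAGT stood in 10.3% of all windows and in 5 of the 12 windows of the 10 genes, those of F7, F9, PROZ and both HABP2 starts. In F7 the match ended 7 bases before the start. The FOXA string TGTTTAC (2.98% of all windows) was found in PROS1. The relaxed C/EBP string TTGCNNAA (9.05%) was found in the downstream windows of HABP2 and PROC, where in HABP2 it covers the letters TTGCAAAA. The GATA string AGATAA (9.17%), the ONECUT string ATCAAT (5.58%) and the strict C/EBP string TTGCGCAA (0.131%) were in none of the 12 windows. The F2 and F10 windows held none of the strings. These matches are descriptions of the letters only.

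Depth ran from 15107847 to 21009065 counts per library in RNA and from 4710335 to 24186949 in Ribo. Levels are given in CPM, the count scaled to a common library size after adjustment by the trimmed mean of M-values (TMM), and 1 count stood for 0.0461 to 0.0685 CPM in RNA and 0.0254 to 0.290 CPM in Ribo. The stage labels were checked against markers: the summed level of 8 DE markers was 6691 to 7074 CPM in DE RNA, 432 to 470 in PP1 and 193 to 341 in PP2, and PDX1, which marks pancreatic progenitors, had no RNA count in DE. PP2 replicate 3 stood apart from its group in RNA: PDX1 was 42.1 CPM there against 212 and 198 in replicates 1 and 2, HNF4A 14.5 against 68.9 and 74.6, and the fetal liver and gut marker AFP 3538 against 1243 and 1427. In Ribo, PP2 replicates 1 and 3 stood apart, with the mitochondrial ribosomal RNA MT-RNR2 at 1.65% and 11.004% of counts against 44.6% to 60.8% in the other 5 libraries. Calls of the 10 genes, and RNA counts of the gene lists from DE to PP1 and from PP1 to PP2, are given with and without these libraries where they differ.

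The coagulation genes formed a wave in RNA that was highest in PP1. The summed level of the 10 genes was 45.9 and 41.1 CPM in the DE libraries, 478 and 462 in PP1, then 118, 130.2 and 219 in PP2. In Ribo the sums were 13.1 and 11.95 CPM in DE, 458 and 467 in PP1, then 265, 107 and 240.3 in PP2. HABP2 and F2 together made 73.9% and 74.8% of the RNA sum in PP1, and 2.20% and 2.10% in DE. Of the 10 genes, 8 had their highest mean RNA level in PP1, and for 7 of them (F2, F5, F7, F10, HABP2, PROC and PROS1) each PP1 library was above each DE and PP2 library. How many of all genes had such a separation was not counted. In bulk RNA, fewer cells that express a gene and less RNA per cell cannot be told apart.

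**Figure D1:**
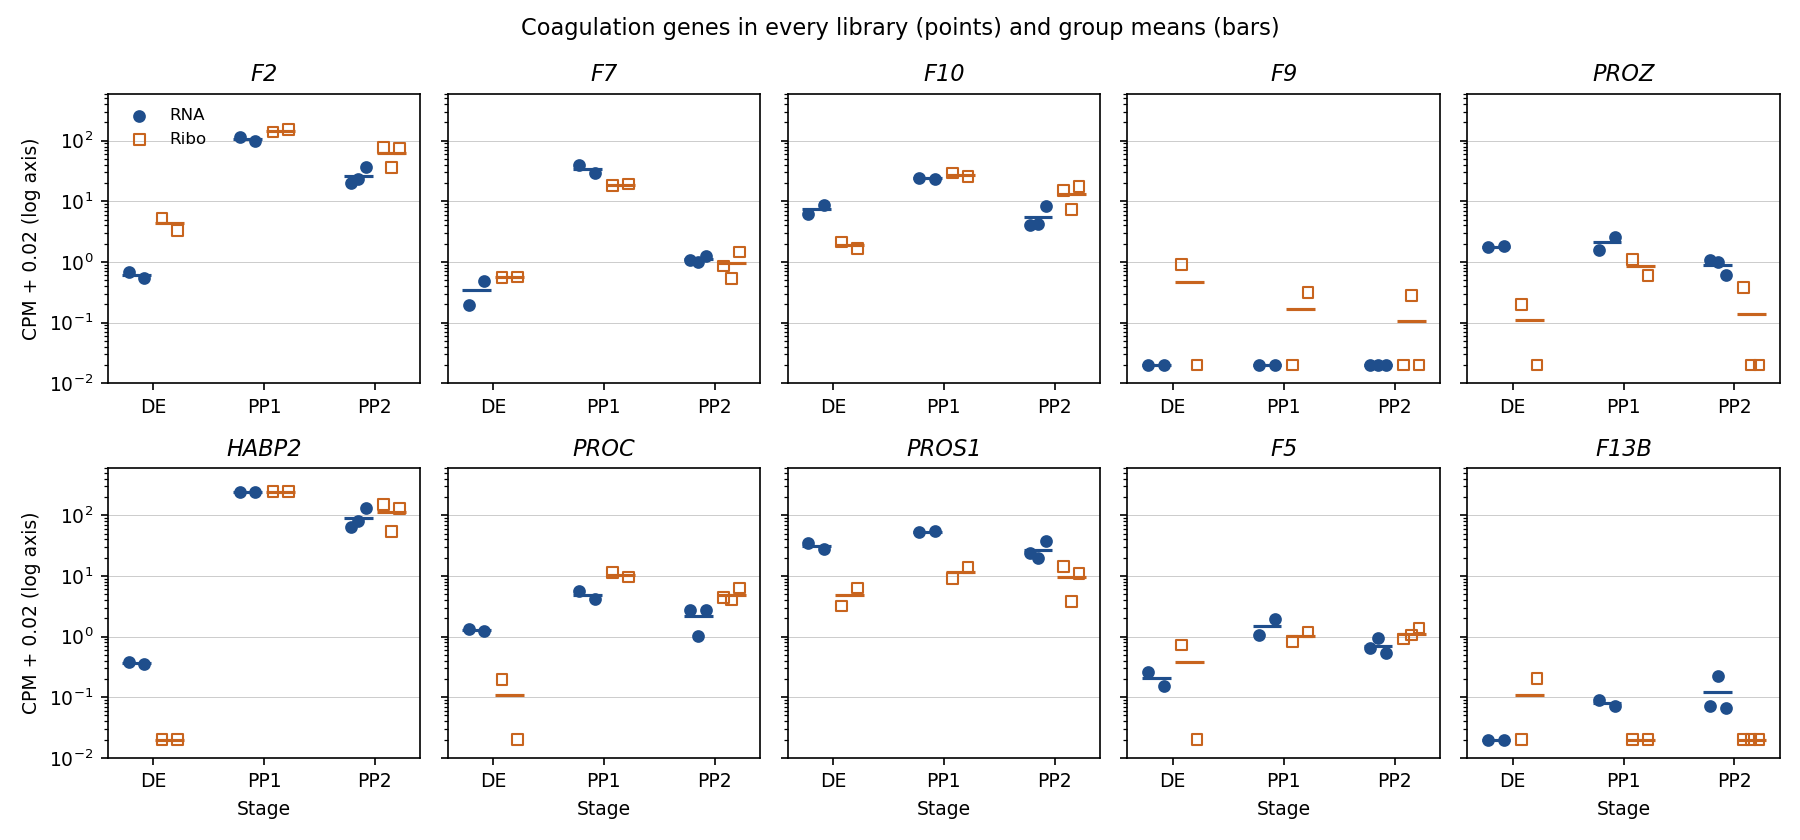
Level of the 10 coagulation genes in every library, as CPM plus 0.02 on a log axis, by stage; filled circles are RNA, open squares Ribo, and bars the group means. In HABP2 and F2 the PP1 libraries lie at 99.8 CPM or more in RNA and at 139.9 or more in Ribo, and F9 and F13B stay near the floor.

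The comparison of PP1 with DE asks which of these genes became more abundant as the cells left the endoderm stage. In RNA 6 of the 8 tested genes rose (F2, F5, F7, F10, HABP2 and PROC) and 0 fell, where 24.3% of all 24603 tested genes passed in either direction and 12.3% rose. F9 and F13B had too few counts to be tested. The median log2 fold change of the 8 tested genes was 2.45, against 0.01 over all genes tested. The test was edgeR's quasi-likelihood test with Benjamini-Hochberg (BH) adjustment over all genes tested, an adjusted p under 0.05 counted as passed, and ± after a fold change is the standard error of the fit.

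HABP2 rose the most of the 10 genes. Its RNA was 0.36 and 0.33 CPM in the DE libraries, 239 and 246 in PP1, then 64.9, 79.2 and 131 in PP2. The PP1 libraries lay close together and far above DE, and the PP2 libraries lay between the other stages without overlap. The rise from DE to PP1 was 9.43 ± 0.49 in log2 units (edgeR quasi-likelihood test with BH adjustment, adjusted p = 1.64e-05). F2, the gene of prothrombin, had 0.65 and 0.53 CPM in DE, 115 and 99.8 in PP1, then 19.99, 23.1 and 36.8 in PP2. The stages of F2 did not overlap either, and the rise to PP1 was 7.48 ± 0.42 (adjusted p = 1.92e-05). F7 had 0.18 and 0.47 CPM in DE, 39.7 and 29.8 in PP1, then 1.04, 0.97 and 1.24 in PP2, so that each PP2 library was above DE but far below PP1. F7 rose by 6.75 ± 0.40 from DE to PP1 (adjusted p = 2.61e-05). These 3 genes passed under all 15 alternative settings.

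F10 differed from those 3 in that it was already present in DE. It had 6.11 and 8.71 CPM in DE, 24.5 and 23.5 in PP1, then 4.12, 4.29 and 8.25 in PP2. PP1 was above each other stage, and the DE and PP2 libraries overlapped. F10 rose by 1.70 ± 0.37 from DE to PP1 (adjusted p = 0.0112). PROC encodes protein C, the protease that inactivates the cofactors Va and VIIIa, and had 1.31 and 1.196 CPM in DE, 5.62 and 4.16 in PP1, then 2.71, 1.02 and 2.67 in PP2. PROC rose by 1.96 ± 0.49 (adjusted p = 0.0214), and its PP2 libraries overlapped those of DE. F5 was low throughout, with 0.24 and 0.13 CPM in DE, 1.03 and 1.92 in PP1, then 0.63, 0.92 and 0.51 in PP2, on 6 counts in DE and 52 in PP1. F5 rose by 2.95 ± 0.64 (adjusted p = 0.0116).

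PROS1 and PROZ did not pass in this comparison. PROS1, the gene of protein S, the cofactor of activated protein C, was the most abundant of the 10 in DE, with 35.4 and 27.9 CPM there, 52.6 and 54.1 in PP1, then 23.6, 19.5 and 37.4 in PP2. PP1 was above DE in each PROS1 library, with a log2 difference of 0.75 ± 0.30 and an adjusted p of 0.114. PROZ, whose protein is the cofactor of the factor Xa inhibitor SERPINA10, had 1.72 and 1.79 CPM in DE, 1.58 and 2.60 in PP1, then 1.04, 0.97 and 0.60 in PP2. Its DE and PP1 libraries overlapped (log2 difference 0.26 ± 0.42, adjusted p = 0.714). F13B had 8 RNA counts in all, 0 in DE, 2 in PP1 and 6 in PP2. F9 had 0 RNA counts in every library, which allows up to 0.138 to 0.206 CPM per library (3 counts, counting error only).

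Over the alternative settings the number of all genes that passed ran from 2935 to 11997, against 5979 in the fit used in the text. With a block for the replicate number, which takes PP2 replicate 3 out of the stage comparisons, 11711 of all genes passed. The number of members that rose also depended on single libraries. It was 3 without DE replicate 1 or PP1 replicate 2 (F2, F7 and HABP2), 4 without DE replicate 2 or PP1 replicate 1, and 7 without PP2 replicate 3, when PROS1 also passed (log2 0.75, adjusted p = 5.62e-05). The adjusted p over the alternatives ran up to 0.0993 for F5, 0.105 for F10 and 0.13 for PROC.

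**Figure D2:**
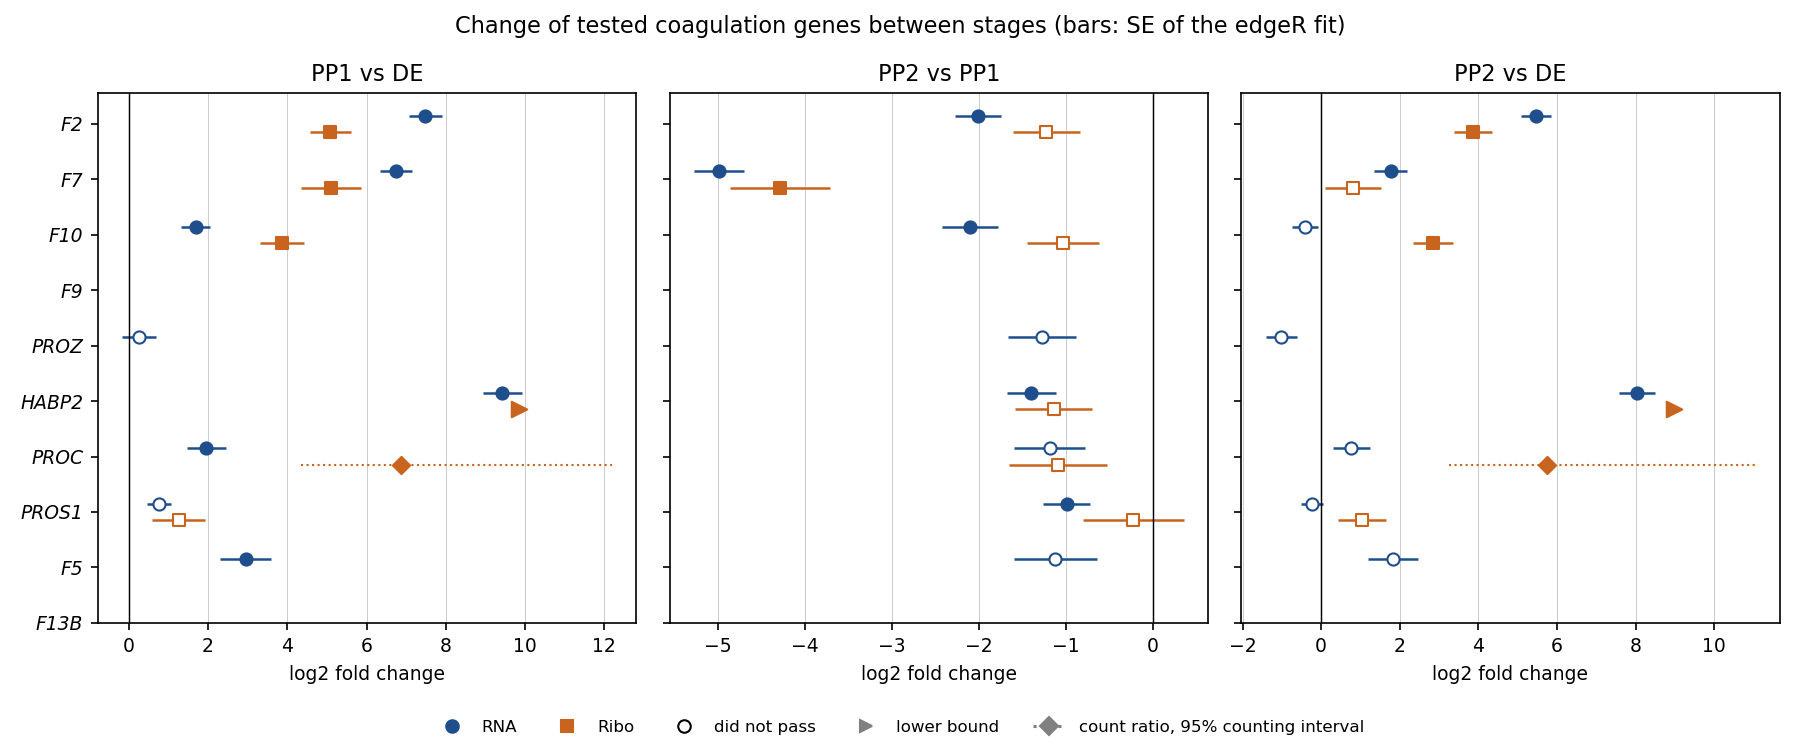
Log2 fold change of each tested coagulation gene in RNA (circles) and Ribo (squares), with bars for the standard error of the edgeR fit; open symbols did not pass, arrows are lower bounds and diamonds count ratios with 95% counting intervals. From PP1 to PP2 all fitted values lie below 0, and F7 has the lowest in each assay.

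From PP1 to PP2 the comparison asks whether the wave lasted into the second progenitor stage. In RNA 5 of the 8 tested genes fell (F2, F7, F10, HABP2 and PROS1) and 0 rose, where 18.4% of all genes tested passed in either direction and 10.6% fell. All 8 tested genes were lower in each PP2 library than in each PP1 library. How many of all genes were separated in this way was not counted. Of 14 liver-enriched transcription factors, 12 also had no overlap between these stages, in either direction. F7 fell by 4.99 ± 0.29 in log2 units (edgeR quasi-likelihood test with BH adjustment, adjusted p = 0.000141), and its mean PP2 level was 3.12% of that in PP1. F10 fell by 2.11 ± 0.32 (adjusted p = 0.00398) to 23.2% of its PP1 level and F2 by 2.01 ± 0.26 (adjusted p = 0.00201) to 24.8%. HABP2 fell by 1.40 ± 0.28 (adjusted p = 0.0122) to 37.9%, and PROS1 by 0.99 ± 0.27 (adjusted p = 0.0396) to 50.3%. PROZ, PROC and F5 did not pass, with log2 differences of -1.27, -1.19 and -1.12 and adjusted p-values of 0.0566, 0.0815 and 0.139. Whether the size of the fall differed between genes was not tested.

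The number of all genes that passed ran from 1210 to 9984 over the alternative settings, against 4533 in the fit used in the text. With the replicate block, which takes PP2 replicate 3 out of the stage comparisons, 9758 passed, so that calls over all genes rose too. The PP2 libraries differed in level. Replicate 3 had the highest PP2 value of F2, F7, F10, HABP2 and PROS1, and without it 7 genes fell, with PROC (log2 -1.37, adjusted p = 0.00473) and PROZ (-1.06, adjusted p = 0.0427) added. The fall of PROS1 was past the threshold in 8 of 15 alternatives (adjusted p up to 0.186), and was lost without any 1 library other than PP2 replicate 3, while without PP1 replicate 1 or PP1 replicate 2 HABP2 was lost too (adjusted p up to 0.0903), leaving F2, F7 and F10.

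Between PP2 and DE, 3 of the 8 tested genes were higher in PP2 RNA, where 33.5% of all genes tested passed in either direction and 16.4% rose. HABP2 rose by 8.03 ± 0.47 (edgeR quasi-likelihood test with BH adjustment, adjusted p = 1.13e-05), F2 by 5.47 ± 0.39 (adjusted p = 2.85e-05) and F7 by 1.76 ± 0.42 (adjusted p = 0.0134). The other tested genes had log2 differences of 1.83 (F5), 0.77 (PROC), -0.24 (PROS1), -0.41 (F10) and -1.01 (PROZ), with adjusted p-values of 0.0571 to 0.55. This comparison shares its libraries with the other 2. Over the alternative settings the number of all genes that passed ran from 4216 to 12995, against 8240 in the fit used in the text. With the replicate block, which takes PP2 replicate 3 out of the stage comparisons, 12475 passed. Without PP2 replicate 3, 6 genes passed, with F5 higher (2.01, adjusted p = 0.023) and F10 (-0.80, adjusted p = 0.00218) and PROS1 (-0.55, adjusted p = 0.00164) lower in PP2 than in DE. Without DE replicate 1, F7 no longer passed and 2 genes remained.

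Per kilobase of counted length, which allows levels to be compared between genes, the order of the 10 genes differed by stage. In DE RNA the order began with PROS1 at 5.81 ± 0.97 CPM per kb (SD, n = 2), followed by F10 at 3.14 ± 0.78 and PROZ at 1.05 ± 0.031. HABP2 and F7 were next to each other at 0.0948 and 0.0847 CPM per kb, with overlapping libraries. In PP1 HABP2 stood first at 66.7 ± 1.34 and F2 second at 42.1 ± 4.12 (SD, n = 2). F10 (10.2 ± 0.29), PROS1 (9.80 ± 0.18) and F7 (9.16 ± 1.83) followed, and the libraries of F7 overlapped those of PROS1 and of F10. PROC was at 1.96 and PROZ at 1.25 CPM per kb in PP1, without overlap of their libraries. In PP2 the order was HABP2 at 25.3 ± 9.66 (SD, n = 3), F2 at 10.4 ± 3.52, PROS1 at 4.93 ± 1.72 and F10 at 2.36 ± 0.99. F7 had moved to the seventh place at 0.286 ± 0.037 CPM per kb, below PROC and PROZ.

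**Figure D3:**
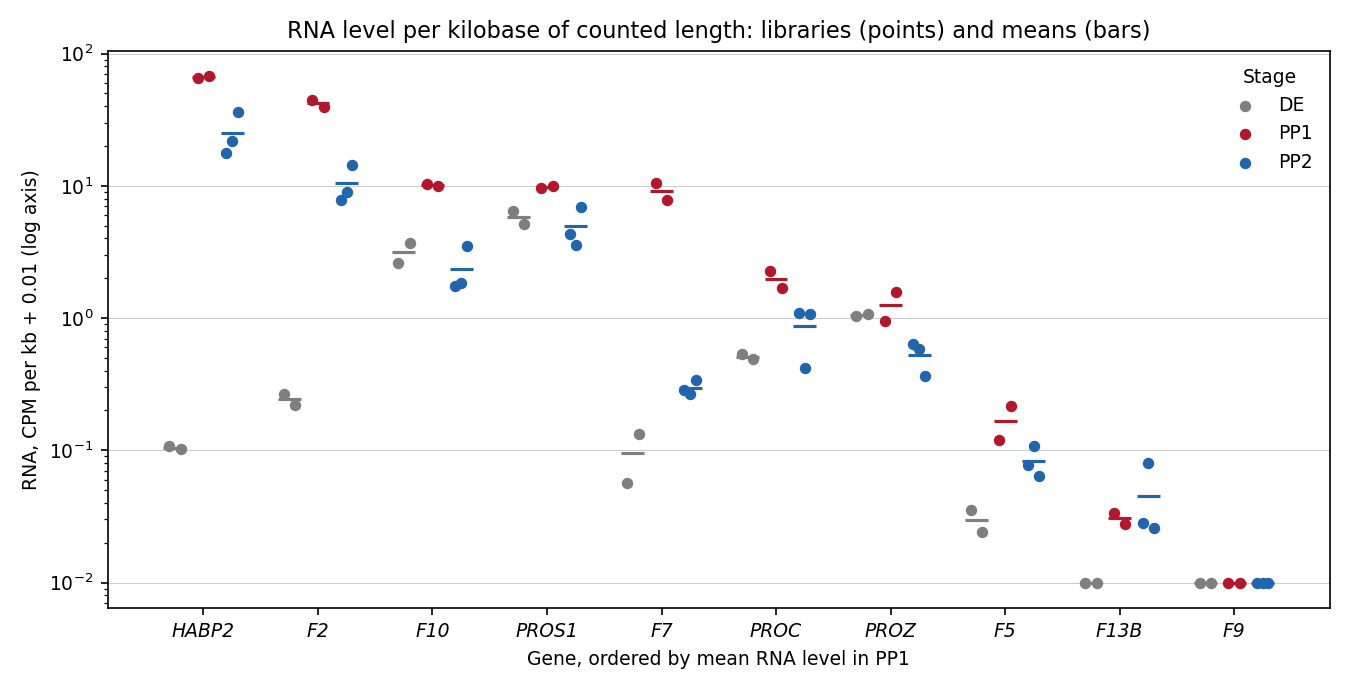
RNA level of each gene per kilobase of counted length, plus 0.01 on a log axis, with genes ordered by their PP1 mean; points are libraries and bars means. HABP2 and F2 lead in PP1 and PP2, and PROS1 leads in DE.

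F7, F10 and PROZ lie close together on the plus strand of chromosome 13 (GRCh38.p14). F7 is at chr13:113105791-113120685, F10 at chr13:113122799-113149529 and PROZ at chr13:113158648-113172386. F7 and F10 are 2113 bases apart, and F10-AS2 is annotated between F10 and PROZ. In RNA F7 rose and fell steeply, F10 rose and fell from a higher DE level, and PROZ passed in neither comparison. PROZ was still lower in each PP2 library than in each PP1 library. Whether the courses of these neighbours differed was not tested. The flanking coding genes MCF2L, PCID2 and CUL4A did not pass from DE to PP1 or from PP1 to PP2. From DE to PP2, MCF2L and CUL4A fell in RNA. PCID2 did not pass there, but fell without PP2 replicate 3 (-0.37, adjusted p = 0.00597). Without PP2 replicate 3, MCF2L fell from DE to PP1 (-0.62, adjusted p = 8.88e-05), and CUL4A (-0.49, adjusted p = 0.000154) fell from PP1 to PP2, as PROZ did. The mean RNA levels were 72.2, 46.97 and 32.2 CPM in DE, PP1 and PP2 for MCF2L, 44.4, 39.1 and 41.1 for PCID2, and 128, 119 and 84.5 for CUL4A. PCID2 overlaps PROZ in the annotation, and F10 overlaps the antisense gene F10-AS1, which had 0.13 to 0.29 CPM in mean RNA. Because the strand setting of the counting is not given in the sources used here, reads of overlapping genes cannot be told apart.

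**Figure D4:**
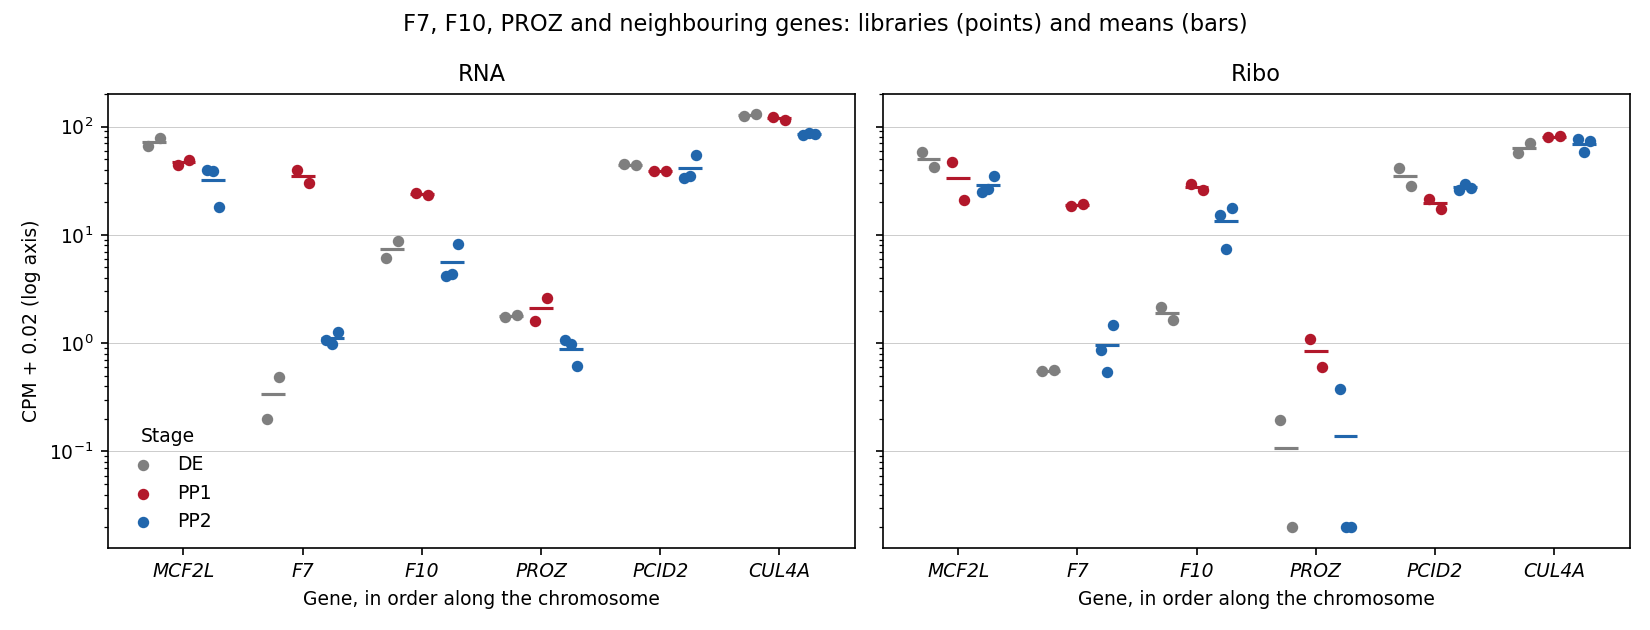
RNA and Ribo levels of F7, F10, PROZ and the flanking genes in their order along chromosome 13, as CPM plus 0.02 on a log axis; points are libraries and bars means. F7 separates PP1 from the other stages most widely, while MCF2L, PCID2 and CUL4A lie between 17.4 and 130.1 CPM in all libraries.

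The same comparisons were made in ribosome-bound RNA. From DE to PP1, 5 of the 6 genes tested in Ribo rose (F2, F7, F10, HABP2 and PROC) and 0 fell, where 7.53% of all 15067 tested genes passed in either direction and 4.52% rose. F5, F9, F13B and PROZ had too few Ribo counts to be tested. HABP2 had 0 counts in each DE Ribo library, 248 and 245 CPM in PP1, then 152, 54.1 and 129 in PP2. HABP2 was at least 918-fold higher in PP1 than in DE, with 3 counts over the DE group as the floor (edgeR quasi-likelihood test with BH adjustment, adjusted p = 0.000159). F2 had 5.32 and 3.26 CPM in DE, 139.9 and 152 in PP1, then 77.3, 36.25 and 73.8 in PP2, with no overlap between stages. F2 rose by 5.09 ± 0.52 (adjusted p = 0.000312).

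F7 had 0.53 and 0.54 CPM of ribosome-bound RNA in DE, 18.3 and 19.2 in PP1, then 0.84, 0.52 and 1.44 in PP2. PP1 stood clear of the other stages, which overlapped. F7 rose by 5.09 ± 0.76 (adjusted p = 0.00216). F10 had 2.13 and 1.63 CPM in DE, 29.3 and 25.8 in PP1, then 15.2, 7.38 and 17.7 in PP2, and rose by 3.87 ± 0.55 (adjusted p = 0.00168). Unlike in RNA, the PP2 libraries of F10 were all above DE in Ribo. PROC had 1 count in all of DE (0.18 and 0 CPM), 11.3 and 9.58 CPM in PP1, then 4.37, 4.01 and 6.28 in PP2. The PP1 to DE ratio of PROC counts was 117, with an exact 95% counting interval of 20.4 to 4678 (adjusted p = 0.00201).

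PROS1 had 3.19 and 6.34 CPM in DE Ribo, 9.15 and 13.65 in PP1, then 14.3, 3.75 and 10.8 in PP2. Its PP1 libraries were above DE, but the difference did not pass (1.26 ± 0.67, adjusted p = 0.3), and the PP2 libraries overlapped both other groups. PROZ had 1 Ribo count in DE and 6 in PP1, and its 14 PP2 counts all came from replicate 1. F5 had 4, 7 and 62 Ribo counts in DE, PP1 and PP2, F9 had 5, 1 and 2, and F13B had 1 count in DE and none after.

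From PP1 to PP2, F7 was the 1 of 6 genes that fell in Ribo, by 4.29 ± 0.58 (edgeR quasi-likelihood test with BH adjustment, adjusted p = 0.00386), where 5.01% of all genes tested passed in either direction and 2.85% fell. F2, F10, HABP2 and PROC were lower in each PP2 library than in each PP1 library, with log2 differences of -1.22, -1.03, -1.14 and -1.09 that did not pass (adjusted p = 0.0916 to 0.283). Over the alternative settings the number of all genes that passed in Ribo ran from 58 to 4175, against 755 in the fit used in the text. PP2 replicate 2 had the lowest PP2 level of 6 of the 7 genes with counts in every PP2 Ribo library. Without PP2 replicates 1 and 3, whose composition stood apart, 4 genes fell: F7 (-5.11), HABP2 (-2.18), F2 (-2.01) and F10 (-1.90), and the single remaining PP2 library was then assumed to vary like the other groups. Without PP2 replicate 2, F2 and F7 passed, and without PP1 replicate 1 or PP1 replicate 2 no gene passed, with the highest adjusted p of F7 at 0.0564.

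Between PP2 and DE, 4 of the 6 genes were higher in PP2 Ribo, where 27.6% of all genes tested passed in either direction and 13.1% rose. HABP2 was at least 499-fold higher (edgeR quasi-likelihood test with BH adjustment, adjusted p = 6.11e-05), F2 rose by 3.86 ± 0.48 (adjusted p = 0.000405) and F10 by 2.84 ± 0.51 (adjusted p = 0.00321). The ratio of PROC counts was 53.1, with a counting interval of 9.46 to 2106 (adjusted p = 0.00236). F7 (0.81, adjusted p = 0.412) and PROS1 (1.03, adjusted p = 0.223) did not pass. The same 4 genes passed without PP2 replicates 1 and 3.

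Translation efficiency (TE) compares both assays: its change is by how much the log2 fold change of Ribo exceeded that of RNA, tested as an interaction in 1 fit of all 14 libraries. From DE to PP1 none of the 6 genes passed in edgeR, where 0.269% of 14152 tested genes passed, although 4 had an unadjusted p under 0.05. Their values were -2.33 ± 0.62 for F2, 2.23 ± 0.67 for F10 and 4.89 ± 1.19 for PROC, with adjusted p-values of 0.165, 0.237 and 0.125. The fourth, HABP2 (adjusted p = 0.443), had no Ribo count in DE, so that the size of its change is not set by the counts. The DESeq2 Wald test passed 1 gene (F2) and limma voom 0. From PP1 to PP2 none of the 6 genes passed in edgeR, none had an unadjusted p under 0.05, and 0.0777% of all genes passed. DESeq2 passed 0 and limma voom 2 (F2 and F10) there.

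Between DE and PP2 the TE of F10 rose by 3.13 ± 0.62 (edgeR quasi-likelihood test with BH adjustment, adjusted p = 0.0136) and that of PROC by 4.81 ± 1.14 (adjusted p = 0.0275), where 5.68% of all genes passed in either direction and 2.01% rose. The RNA of F10 was 7.41 ± 1.83 CPM in DE and 5.55 ± 2.34 in PP2, while its ribosome-bound RNA was 1.88 ± 0.35 and 13.4 ± 5.38 (SD, n = 2 and 3). The PROC value rests on 1 Ribo count in DE. F2 (-1.72, adjusted p = 0.0827), F7 (-1.04, adjusted p = 0.444), PROS1 (1.15, adjusted p = 0.266) and HABP2 (adjusted p = 0.142) did not pass. Without Ribo PP2 replicates 1 and 3 neither gene passed (F10 2.39, adjusted p = 0.083, and PROC 4.64, adjusted p = 0.102), and neither passed without RNA DE replicate 2. Only F10 passed without RNA DE replicate 1, Ribo DE replicate 2 or Ribo PP2 replicate 3, and 5 genes passed without Ribo PP2 replicate 2.

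Some further genes had RNA profiles close to those of the members. Over the 7 RNA libraries, Pearson's r of log2(CPM + 1) with HABP2 was highest for MTTP, the microsomal triglyceride transfer protein (0.9992), and APOA1, the main protein of high-density lipoprotein (0.9991), among 10679 candidate protein-coding genes. For F2 the closest were SH3YL1 (0.9993) and MPZL1 (0.9987), for F7 UNC5B (0.9961) and DACT1 (0.9954), for F10 ADCK5 (0.9922) and FSTL3 (0.9906), and for PROS1 CYP3A5 (0.9878) and DDIT4L (0.9873). Many genes lay nearly as close: r was above 0.95 for 363 candidates with HABP2, 324 with F2, 172 with F7, 98 with F10 and 39 with PROS1. The 7 points share 3 stages, and the values are descriptions.

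Among 11 other coagulation factors, 4 of the 8 tested rose and 3 fell in RNA from DE to PP1, and 2 rose and 4 fell from PP1 to PP2. The 3 fibrinogen chains FGA, FGB and FGG, the substrate of thrombin, and F3 were the 4 that rose to PP1. FGB had 0 counts in DE, 877 and 856 CPM in PP1, then 97.0, 116 and 245 in PP2. FGB was at least 9196-fold higher in PP1 than in DE (adjusted p = 4.78e-05) and fell by 2.505 ± 0.39 to PP2 (adjusted p = 0.00592). F3, the tissue factor that binds factor VII, rose at each step, by 1.25 ± 0.17 (adjusted p = 0.00115) and 0.88 ± 0.15 (adjusted p = 0.00684), from 22.1 to 52.5 and 96.6 CPM in mean. VWF, the carrier of factor VIII, fell by 7.47 ± 0.32 from 146 CPM in DE to 0.81 in PP1 (adjusted p = 8.8e-06). KNG1, the kininogen of the contact pathway, had 2 counts in PP1 and 79 in PP2, a ratio of 22.1 with a counting interval of 5.92 to 186 (adjusted p = 0.0477). Replicate 3 gave 57 of the 79 counts, and without it the ratio was 9.60 (2.36 to 84.2) and KNG1 had too few counts to be tested.

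Among 12 anticoagulant and inhibitor genes, 7 of the 11 tested rose and 2 fell from DE to PP1, and 3 rose and 5 fell from PP1 to PP2. TFPI, which inhibits factors VIIa and Xa, rose by 8.36 ± 0.54 (adjusted p = 3.47e-05) from 1.15 CPM to 382 CPM and fell by 2.79 ± 0.35 (adjusted p = 0.00171) to 55.04 CPM. SERPINA5, the protein C inhibitor, rose at each step, with mean levels of 0.19, 26.4 and 173 CPM, and so did the broad protease inhibitor A2M, with 1.61, 7.52 and 80.2 CPM. SERPINE2 fell at each step from 276 CPM to 97.8 and 25.4. SERPINC1, the gene of antithrombin, stayed at 0.25, 0.37 and 0.64 CPM and passed in neither step (adjusted p = 0.598 and 0.387). Without RNA PP2 replicate 3 the counts from DE to PP1 were 4 and 3 of 7 for the other coagulation factors and 7 and 2 of 10 for the inhibitors, and from PP1 to PP2 they were 1 and 4 of 7 and 3 and 5 of 10.

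Of 9 genes for the vitamin K cycle, propeptide cleavage and export of coagulation factors from the endoplasmic reticulum, 4 rose and 0 fell from DE to PP1, and 0 rose and 4 fell from PP1 to PP2. GGCX, the carboxylase, had 69.7 and 67.7 CPM in DE, 101 and 98.1 in PP1, then 60.4, 63.2 and 84.7 in PP2, with log2 differences of 0.54 and -0.52 that did not pass (adjusted p = 0.108 and 0.0963). VKORC1, the vitamin K epoxide reductase, was at 1.09, 1.17 and 1.99 CPM in mean, and its paralog VKORC1L1 rose by 0.74 ± 0.17 (adjusted p = 0.0129) from 32.2 CPM to 53.9 CPM. The convertase PCSK5 rose by 3.54 ± 0.22 (adjusted p = 3.05e-05) and fell by 1.003 ± 0.18 (adjusted p = 0.00734). Without RNA PP2 replicate 3, 7 of the 9 genes rose and 1 fell from DE to PP1, and 0 rose and 6 fell from PP1 to PP2. GGCX was then among those that rose (0.54, adjusted p = 5.62e-05) and fell (-0.68, adjusted p = 4.56e-06). Calls over all genes rose too in these steps. With the replicate block, which takes out that library, 11711 and 9758 genes passed in place of 5979 and 4533. Of 8 other Gla protein genes, 2 of the 7 tested rose and 1 fell from DE to PP1, and 0 rose and 1 fell from PP1 to PP2. Without RNA PP2 replicate 3 these were 2 and 2, then 0 and 3. The growth factor gene GAS6 fell by 1.21 ± 0.17 (adjusted p = 0.00144) from DE to PP1.

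Among 7 receptor genes of thrombin, other coagulation proteases and protein S, 3 of the 6 tested rose from DE to PP1 and 1 fell, and 2 fell from PP1 to PP2. F2R, the main thrombin receptor, rose by 1.15 ± 0.27 (adjusted p = 0.0167) and fell by 1.03 ± 0.24 (adjusted p = 0.0226). F2RL1, a receptor cut by factors VIIa and Xa, rose by 2.94 ± 0.50 (adjusted p = 0.00357) and fell by 1.81 ± 0.42 (adjusted p = 0.0205). TYRO3, a receptor of protein S and GAS6, fell by 0.63 ± 0.18 (adjusted p = 0.0359). Without RNA PP2 replicate 3, 4 of the 6 rose and 2 fell from DE to PP1, and 5 of the 6, TYRO3 among them, fell from PP1 to PP2. Calls over all genes also rose with the replicate block, as given above. Of 8 fibrinolysis genes, 3 of the 7 tested rose and 1 fell from DE to PP1, and 1 rose and 3 fell from PP1 to PP2. Without that library 4 rose and 1 fell, then 2 rose and 4 fell. SERPINF2, the gene of the plasmin inhibitor, rose by 7.38 ± 0.26 (adjusted p = 6.31e-06) from 0.66 CPM to 111 CPM and fell by 1.72 ± 0.17 (adjusted p = 0.000615) to 33.8 CPM in PP2.

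Of 14 liver-enriched transcription factors, 9 of the 13 tested rose in RNA and 0 fell from DE to PP1, and 0 rose and 5 fell from PP1 to PP2. HNF4A had 37.2 and 28.9 CPM in DE, 163 and 153 in PP1, then 68.9, 74.6 and 14.5 in PP2. HNF4A rose by 2.25 ± 0.64 (adjusted p = 0.035), and its difference from PP1 to PP2 was -1.58 with an adjusted p of 0.0821. CEBPB rose by 2.79 ± 0.41 (adjusted p = 0.0017) and fell by 2.92 ± 0.35 (adjusted p = 0.00142), with mean levels of 11.6, 80.2 and 10.5 CPM. In RNA PP2 replicate 3, HNF4A was at its lowest of the progenitor libraries while F2, HABP2, F7, F10 and PROS1 were at their highest of PP2. That is a single library, and how these levels relate was not tested. Without that library 10 of the factors rose and 1 fell from DE to PP1, and 1 rose and 10 fell from PP1 to PP2, with HNF4A among those that fell (-1.13, adjusted p = 4.05e-08). Calls over all genes rose too. With the replicate block, which takes out that library, 11711 and 9758 genes passed in these steps, in place of 5979 and 4533.

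**Figure D5:**
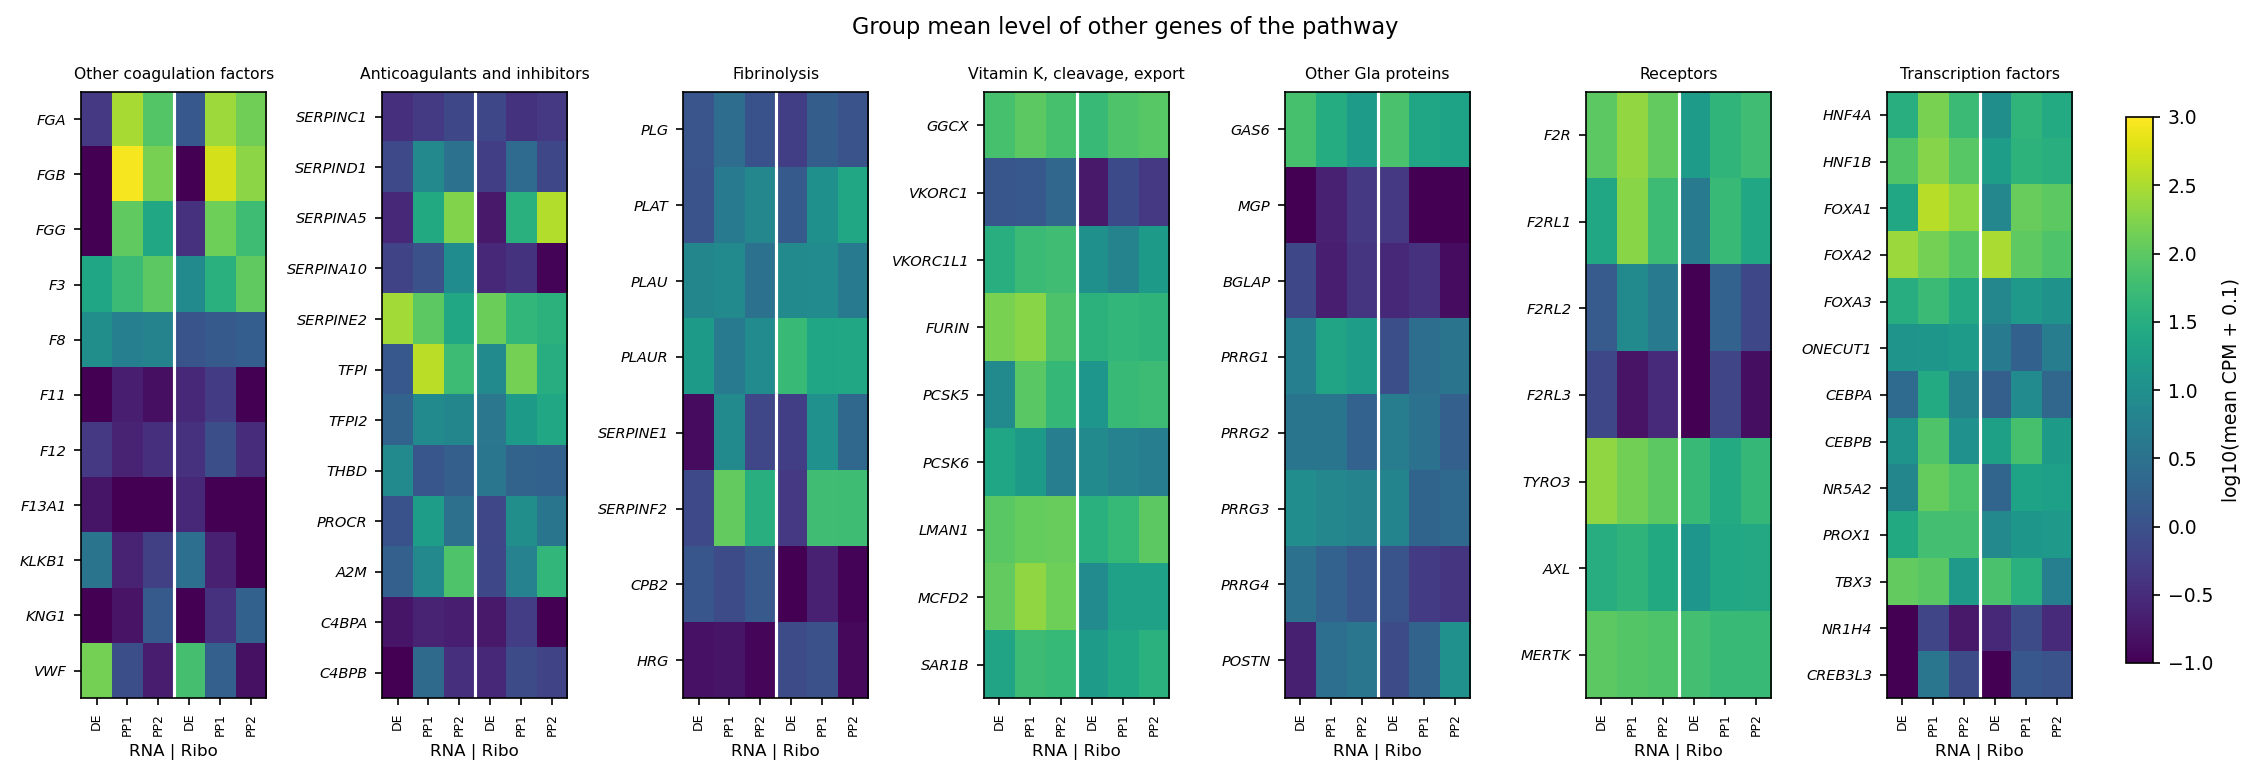
Group mean level of other genes of the pathway in 7 lists, as log10 of mean CPM plus 0.1, with RNA stages left and Ribo stages right of the white line in each panel. In RNA the fibrinogen chains, TFPI and SERPINF2 are brightest in PP1, F3, SERPINA5 and A2M in PP2, and VWF and SERPINE2 in DE.

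Markers of liver also had their highest summed RNA level in PP1. The sum of 9 hepatic markers was 16.6 to 19.3 CPM in DE RNA, 12980 to 14023 in PP1 and 4748 to 7180 in PP2. From DE to PP1, 8 of the 9 rose (9 without RNA PP2 replicate 3). From PP1 to PP2, 5 of the 9 fell and 3 rose in RNA, while 5 of the coagulation genes fell and 0 rose. In Ribo 0 of the 9 markers fell and 1 rose from PP1 to PP2, where 5.01% of all genes tested passed in either direction. The Ribo count of falling markers was not 0 without PP2 replicates 1 and 3, which stood apart, but then only 1 PP2 library remained. The Ribo sum of the 9 markers was 12493 to 12722 CPM in PP1 and 7307 to 20065 in PP2. AFP, TTR, SERPINA1, FGB and AHSG had no RNA count in DE. The list holds FGB, which is also among the coagulation factors. For 4 intestinal markers the summed RNA level was 16.0 to 16.3 CPM in DE, 423 to 479 in PP1 and 138 to 172 in PP2. For 8 endothelial markers it was 71.3 to 85.6, 28.5 to 34.5 and 44.8 to 63.0 CPM, and for 8 megakaryocyte, platelet and blood markers 10.1 to 11.96, 4.32 to 5.198 and 1.43 to 5.06 CPM, with PPBP and HBG1 at 0 in all RNA libraries. The sums were 501 to 529.9, 987 to 1042 and 439 to 1413 CPM for 8 pancreatic progenitor markers, 87.3 to 109 and 349 to 403 CPM in DE and PP1 and 165 to 359 in PP2 for 6 mesenchymal markers, and 179 to 196, 80.6 to 81.6 and 63.9 to 85.1 CPM for 5 markers of undifferentiated stem cells. The part of other cell types in the levels of the 10 genes was not tested.

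PROS1 has a near copy, the pseudogene PROS2P, and reads could be split between them. PROS2P was listed at 4.45 and 3.19 CPM in DE RNA, 0.41 and 0 in PP1, then 0, 0 and 0.09 in PP2, so that it fell by 4.32 ± 0.97 from DE to PP1 (adjusted p = 0.0131) while PROS1 did not, and it had no Ribo count. HABP2 overlaps the muscle gene NRAP, which had 6.85 and 6.86 CPM in PP1 RNA against 239 and 246 for HABP2.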

How the data were processed

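The deposited table gives the authors' raw counts by gene symbol, in 14 count columns, with a length for each gene. Per the submitters' processing notes, cutadapt 1.18, Bowtie 1.2, STAR 2.7.1a and featureCounts 1.6.4 were used with hg38. Their settings, the strand, the annotation and the features over which Ribo reads were counted are not given in the sources used here. The deposited length of each gene, another value of the table, was used as it stands.

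Under R 4.3.3, edgeR 4.0.16 was run once per assay on all 3 stages: filterByExpr, TMM scaling, estimateDisp, glmQLFit and glmQLFTest, with Benjamini-Hochberg adjustment over all genes tested. TE used 1 fit with 6 groups over genes that passed the filter in each assay. Adjusted p-values in the text without a tool are from edgeR. A gene with 0 counts in a group was given a bound (3 counts over the group), and one with 1 to 3 counts a count ratio with an exact 95% interval, which covers counting error only.

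The 10 genes and all lists were chosen with earlier results of these data known. Named genes were all members, GGCX, VKORC1, SERPINC1, FGB, F3, TFPI, HNF4A and PROS2P, and from each list the 3 most abundant in RNA and those with the highest and lowest log2 fold change that passed. Some genes under this rule are not given values and 1 gene is not reported here, while VKORC1L1, AFP, PDX1, NRAP and the flanking genes of F7 and PROZ were named after their values were seen. Close profiles were sought for members with a mean of at least 10 CPM in an RNA stage, and the 2 highest correlations were named. The statistics were tested on simulated data. Alternatives were DESeq2 1.42.0 size factors and Wald test, protein-coding genes only, other filters, limma 3.58.1 voom, only the stages compared, a replicate block, and leaving out libraries. The list counts and calls of single genes outside the 10 without doubted libraries and the list directions under other scalings were chosen after seeing the data. Of the 10 genes, all had upstream windows in RefSeq, and promoter motifs were searched in those 250 bases.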

Additional observations from a re-analysis of the deposited data

Results flagged for a closer look

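By the interaction test of the Ribo change against the RNA change, 2 of the 6 tested members differed between assays from DE to PP2. The other members had too few counts to be tested. Over all genes tested, 5.68% passed in either direction and 2.01% rose. The difference was 3.13 in log2 units for F10, with a Ribo change of 2.84 and an RNA change of -0.41. It was 4.81 for PROC, with an RNA change of 0.77 and 1 Ribo count in all of DE, so that its size is poorly set. Neither gene passed without RNA DE replicate 2. PROC also did not pass without RNA DE replicate 1, Ribo DE replicate 2 or Ribo PP2 replicate 3. With Ribo PP2 replicates 1 and 3 left out the values were 2.39 and 4.64 and did not pass (adjusted p = 0.083 and 0.102).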

How the results depend on the processing

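No called change of a member reversed its sign under any alternative that was run. Of the log2 fold changes of members under the alternatives, 942 kept their direction and side of the threshold, 32 were lost, 43 were gained and 25 moved without a call. For RNA PP2 vs DE, limma voom and the replicate block each passed 6 members in place of 3. Replicate number 3 exists only in PP2, so that in the RNA and Ribo fits the block takes that library out of the stage comparisons. The same 6 members passed without RNA PP2 replicate 3. For Ribo PP2 vs PP1, protein-coding genes only and DESeq2 each passed 2, limma voom 4 and the fit without Ribo PP2 replicates 1 and 3 also 4, in place of 1. For TE PP1 vs DE, DESeq2 passed 1 and a fit of only the stages compared 3, in place of 0, and for TE PP2 vs PP1 limma voom passed 2 in place of 0. For TE PP2 vs DE, the filter at a mean of 50 counts, the fit of only the stages compared and the replicate block each passed 1 and the fit without Ribo PP2 replicates 1 and 3 passed 0, in place of 2. The cause of these differences was not tested.

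Leaving out 1 library at a time gave 3 to 7 members for RNA PP1 vs DE, 3 to 7 for RNA PP2 vs PP1, 2 to 6 for RNA PP2 vs DE, 0 to 2 for Ribo PP2 vs PP1, 4 to 5 for Ribo PP2 vs DE and 0 to 5 for TE PP2 vs DE. Correlations of same-numbered deviations from the group means ran from -0.248 to 0.146. They cannot show whether the replicate numbers pair the libraries, because with 2 libraries in a group the deviations mirror each other. With the replicate block the genes past the threshold were 11711, 9758 and 12475 in RNA, 745, 201 and 1682 in Ribo and 21, 2 and 301 in TE for PP1 vs DE, PP2 vs PP1 and PP2 vs DE. Over all alternatives these counts ran from 2935 to 11997, 1210 to 9984 and 4216 to 12995 in RNA, 424 to 3149, 58 to 4175 and 1682 to 6901 in Ribo, and 6 to 756, 0 to 1856 and 52 to 4139 in TE. With protein-coding genes only, the share that rose among genes past the threshold for RNA PP2 vs PP1 was 52.9% in place of 42.3%, and the median of all genes moved by 0.10 in log2 units. Under that scaling and DESeq2 size factors 0 of the called pathway genes changed sign, and PRRG2 alone lost its call (RNA PP2 vs DE). F5, F9, F13B and PROZ were not tested in Ribo, where 3 counts stood for 0.0762 to 0.871 CPM.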
